A study of Mus musculus with 12 samples.

Results

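The effect of the 3′IgH CBEs deletion was examined in splenic B cells stimulated with αCD40/IL4, which were represented by 6 of the 12 libraries of the series, 3 labelled WT and 3 labelled 3CBEsD. They were chosen by genotype and stimulation in the sample labels, and every junction in their lists was used. Both groups were mature splenic B cells of chimeric mice made by RAG2-deficient blastocyst complementation, in which the host lacks lymphocytes of its own and mature B cells come from injected ES cells. The WT cells had the locus intact, and the deleted cells lacked all of the 3′IgH CBEs on both alleles. Cells of both groups were cultured with anti-CD40 and IL4 for 96 h, and the age of the mice and the number of ES clones were not given in the sources used here. Nothing in the labels says that replicates came from separate mice, so the tests measure the spread between libraries, which may be technical.

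Class switch recombination (CSR) joins a DNA break in the switch region Sμ, which lies before the constant exons of IgM, to a break in a switch region before another set of constant exons, and it is started by the deaminase AID, which acts on transcribed DNA. αCD40 stands in for T-cell help and, together with IL4, directs switching to IgG1 through Sγ1 and to IgE through Sε. A join that removes the DNA between the breaks is deletional and can produce a new heavy chain, while a join that turns the DNA around is inversional and cannot. Transcription through most acceptor switch regions depends on the enhancers of the 3′IgHRR, behind which the 3′IgH CBEs, a group of CTCF-binding elements, close the locus. The stretch just past the 3′IgH CBEs is called eS, for ectopic S region.

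In CSR-HTGTS-seq, DNA is amplified from a primer at the 5′ end of Sμ, the bait, and each read shows where the sequence joined to it, the prey, lies and which way it points. The bases that open the bait are printed so that the joins below can be read from them. They matched mm9 at chr12:114664880-114664909 on the minus strand, between the J segments and the constant exons of Ighm, and the alignment of the deposited lists, which uses IgH sequence of another mouse strain in place of part of mm9, puts the first base at position 114669258 of chromosome 12.
Start of the 5′Sμ bait: cacacaaagactctggacctctccgaaacc

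For each of Sμ, Sγ1, Sε and eS, the prey position that recurred in the most of the 6 libraries is shown as 1 joined read from a 3′IgH CBEs-deleted library. Capitals mark 60 bases of prey, and lower case marks the 20 bases of bait before the prey with any inserted bases after them. A base shared by bait and prey is printed as prey. All 4 joins were deletional.
Sμ, position 114669163: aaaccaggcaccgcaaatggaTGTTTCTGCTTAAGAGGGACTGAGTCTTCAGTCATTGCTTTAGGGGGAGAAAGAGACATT
Sγ1, position 114571140: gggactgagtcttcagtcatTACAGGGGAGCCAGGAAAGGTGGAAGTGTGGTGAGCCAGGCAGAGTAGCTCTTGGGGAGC
Sε, position 114514991: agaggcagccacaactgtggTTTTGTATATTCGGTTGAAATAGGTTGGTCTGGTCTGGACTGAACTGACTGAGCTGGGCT
eS, position 114452968: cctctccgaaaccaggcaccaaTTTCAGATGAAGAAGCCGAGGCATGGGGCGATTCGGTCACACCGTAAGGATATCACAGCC
The Sμ position was found in all 6 libraries, in 17 WT and 21 deleted junctions, and the read shown had 1 inserted base. The Sγ1 position was also found in 6 libraries, in 10 WT and 5 deleted junctions, with 1 base shared by bait and prey. The Sε position was found in 5 libraries, in 20 WT and 3 deleted junctions, as a direct join. The eS position was found in only 2 libraries, with 1 junction in each, both 3′IgH CBEs-deleted, and the read shown had 2 inserted bases. Another eS position, 5.012 kb from the 3′IgH CBEs boundary, was also found in 2 deleted libraries. Its joins there were inversional in replicate 2 and deletional in replicate 3, so it does not recur in 1 orientation. The first 40 prey bases of the Sμ read matched mm9 chr12:114664775-114664814 and those of the eS read chr12:114452929-114452968, each on the minus strand and outside the annotated genes. Those of Sγ1 and Sε had no exact match on mm9 chromosome 12, where the other strain's sequence replaces mm9. The Sγ1 and Sε preys each held the motif AGCT, a preferred target of AID, 1 time in 60 bases, and the other preys did not.

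The WT libraries held 3703, 5015 and 4705 junctions and the deleted libraries 2273, 3307 and 3281. Of these, 10805 WT and 5557 deleted junctions lay in the 300-kb IgH window (chromosome 12, 114400001 to 114700000), with 3476 to 3830 per WT library and 1267 to 2329 per deleted library. Deleted replicate 3 stood apart from the others, with 61.4% of its junctions outside the window against 6.13 to 29.6% in the other 5. Most of those preys were G-rich, meaning 70% G or more, and such preys made up 55.7% of that library and at most 21.02% of any other, none of them in the window. Replicates numbered 1 shared a sequencing run, as did those numbered 2, and WT replicate 3 and deleted replicate 3 were in separate runs. The aligned prey was also shorter in deleted libraries, with medians of 81 to 98 bases against 104 to 105. Any pair of libraries had 1.26 to 3.89% of the smaller library's junctions in common. The stretch of the 3′IgH CBEs itself held 1 WT junction and 0 deleted junctions, too few to check the genotype. The lists hold only a small part of the Sγ1 junctions that the study itself counted, while their Sε counts are close to the study's. The Sε shares below are therefore far above those that the study reports, and the Sγ1 shares far below. This bears on every share below that has Sγ1 in it or under it.

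The 14 regions were compared first, each as its share of the junctions in the window. With 3 libraries against 3, the two-sided exact permutation test cannot give less than p = 0.1, so a region was called only if its WT and deleted libraries kept apart, without overlap. This held for 6 of 14 regions (42.9%), namely Sμ, Sγ1, Sε, eS, the sequence downstream of eS and the sequence between Sμ and Sγ3. After adjustment over the 14 regions, the permutation p for each of them was 0.233. Fisher's exact test is given beside it on pooled junctions, and compares junctions, not replicates.

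Sε, the acceptor for IgE, fell most. Its share was 27.6, 26.7 and 29.2% in WT replicates 1, 2 and 3, and 9.33, 7.86 and 9.39% in the deleted ones, so that the highest deleted library was far below the lowest WT library. The mean fell from 27.9% ± 1.26 (SD, n = 3) to 8.86% ± 0.869 (SD, n = 3), which is 31.8% of the WT level (exact permutation p = 0.1, Fisher's exact test on 3006 and 485 junctions, adjusted p = 1.33e-195). Within the run that held the replicates numbered 1, the share fell by 18.3 percentage points, and within that of the replicates numbered 2 it fell by 18.9. Without deleted replicate 3 it fell by 19.3. With junctions outside Sγ1 as the denominator, the means were 40.7 and 13.5%.

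The window share of Sγ1, the acceptor for IgG1, did not fall with that of Sε. It took 32.0, 31.7 and 31.0% of the window junctions in WT and 34.4, 33.4 and 35.0% in the deleted libraries. The libraries did not overlap, and the mean rose from 31.6% ± 0.532 to 34.3% ± 0.827 (SD, n = 3 each, exact permutation p = 0.1, Fisher's exact test, adjusted p = 0.000918). The rise was 2.40 and 1.71 percentage points within the runs shared by replicates 1 and 2. Because shares of the window sum to the whole, this rise is not independent of the fall in Sε. The Sγ1 share of the junctions outside Sε was not calculated. In the window, the mean Sγ1 share rose to 108.6% of the WT level and the mean Sμ share to 135.3%. Sγ1 therefore fell relative to Sμ, and these 2 regions hold most of the junctions outside Sε. With all junctions of the genome as denominator the Sγ1 means were instead 25.8 and 22.3%, overlapping and in the opposite direction. Without G-rich preys they were 29.6 and 30.0%, which also overlapped. Of Sε and Sγ1 junctions together, Sε made up 46.3, 45.7 and 48.5% in WT and 21.3, 19.0 and 21.1% in the deleted libraries (exact permutation p = 0.1). With most of the study's Sγ1 junctions absent from the lists, these values do not give the balance of the 2 acceptors in the cells.

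Junctions within Sμ, in which the bait joined the same switch region, took a larger share in the deleted cells. They made up 39.5, 40.9 and 38.9% of the window in WT and 53.5, 55.6 and 52.3% in the deleted libraries. The mean rose from 39.8% ± 1.05 to 53.8% ± 1.68 (SD, n = 3 each, exact permutation p = 0.1, Fisher's exact test, adjusted p = 8.52e-68), and by 13.99 and 14.71 percentage points within the runs of replicates 1 and 2. Because the shares sum to the whole window, a rise here and a fall in Sε are not independent.

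eS received no junction in any WT library, where 3 junctions, the smallest number taken as detectable, would be 0.0783 to 0.0863% of the window. The deleted libraries had 33, 48 and 23 junctions there, or 1.68, 2.06 and 1.82%. The mean of 1.85% ± 0.192 (SD, n = 3) was at least 22.2-fold higher than the mean of the WT limits per library (exact permutation p = 0.1, Fisher's exact test, adjusted p = 1.06e-49). The bounds of eS were read from the study's figures, which show junctions of these same libraries. The fold and the tests are therefore not independent of how eS was drawn. A further 14 deleted junctions and 0 WT junctions lay downstream of eS, and 10 of these were in the next kb. For comparison, Sε kept 485 junctions in the same libraries against 104 in eS.

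**Figure D1:**
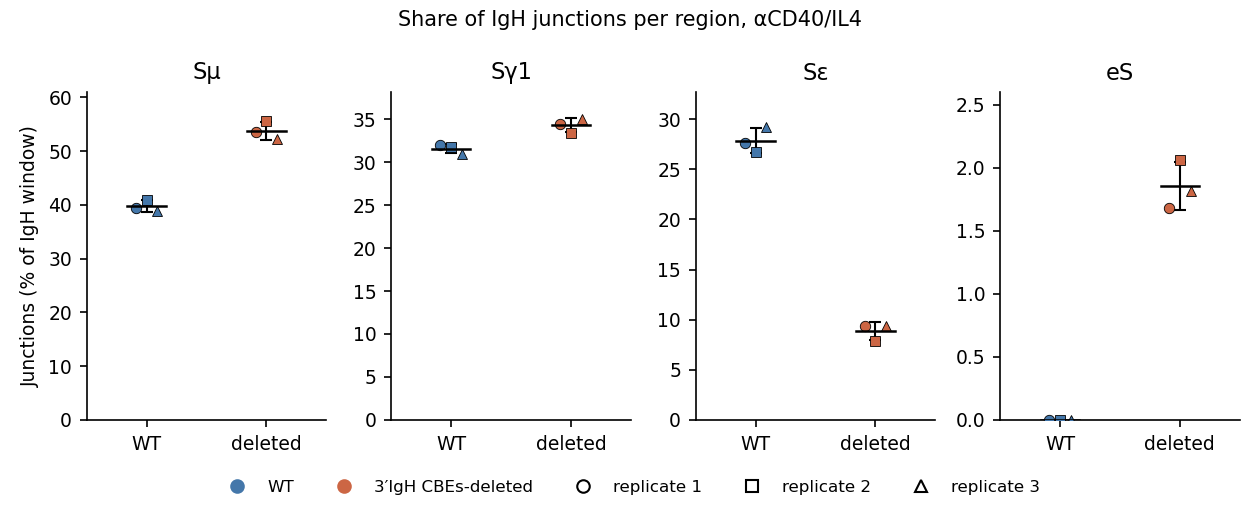
Share of window junctions in Sμ, Sγ1, Sε and eS (y axis, percent) in each of the 6 αCD40/IL4 libraries. Points are libraries with the replicate given by the symbol, horizontal bars are means and error bars are SD (n = 3). Sε falls from 27.9 to 8.86%, Sμ rises from 39.8 to 53.8%, and eS is at 0 in every WT library.

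The remaining 9 regions held few junctions, 86 in WT and 49 in the deleted libraries in all, with no group mean above 0.316%. Of these, the sequence between Sμ and Sγ3 had 0, 3 and 3 junctions in WT and 2, 6 and 2 in the deleted libraries, which did not overlap as shares (0.0547 and 0.172%, adjusted Fisher p = 0.0707 over the 14 regions). Sγ2b, the acceptor for IgG2b, had 34 WT and 10 deleted junctions, and its libraries overlapped. The 3′IgHRR, which was present in both genotypes, had 13 and 10 junctions, and Sα, before the IgA exons, had 9 and 6. Other differences at these counts were not detectable at this depth.

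The orientation of the joins differed between the genotypes in each of the main switch regions. It was read from the strand of the prey alone. Deletional Sμ joins and their medians therefore include preys upstream of the bait start, where the strand does not show that DNA between the breaks was removed. The bin centred at -1.24 kb held 14, 23 and 12 of them in WT and 9, 3 and 2 in the deleted libraries. Inversional joins made up 19.1, 18.8 and 20.5% of Sμ junctions in WT and 28.3, 30.9 and 31.5% in the deleted libraries. The mean rose from 19.5% ± 0.906 to 30.3% ± 1.71 (SD, n = 3 each, exact permutation p = 0.1, Fisher's exact test on pooled junctions, adjusted p = 2.13e-25 over 3 regions). In Sγ1 the inversional share was 12.9, 12.03 and 13.8% in WT and 19.6, 20.9 and 21.8% in the deleted libraries (Fisher adjusted p = 3.76e-13, exact permutation p = 0.1). In Sε it was 4.99, 6.26 and 5.77% in WT and 12.02, 11.5 and 11.8% in the deleted libraries, and the latter rest on 57 inversional junctions (Fisher p = 3.76e-06, exact permutation p = 0.1). No library of one genotype reached the range of the other in any of the 3 regions. eS had 17 inversional junctions of 104, or 16.3% (Wilson 95% interval 10.5 to 24.6%), so most of its joins were deletional as well.

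Counted against the whole window, the orientations moved apart. Deletional Sγ1 junctions took 27.9, 27.9 and 26.7% of the window in WT and 27.7, 26.4 and 27.4% in the deleted libraries, which overlapped (means 27.5 and 27.2%, exact permutation p = 0.5). Inversional Sγ1 junctions rose from 4.08% ± 0.243 to 7.13% ± 0.476, with no overlap. Among deletional junctions alone, however, the Sγ1 share rose from 31.8 to 36.2% without overlap. The overlap of the deletional Sγ1 share of the window also ended without WT replicate 3, with a difference of -0.72 percentage points, and with replicates 1 and 2 alone, with -0.83. Deletional Sε junctions fell to 29.8% of the WT level, from 26.3 to 7.82% of the window. Inversional Sε junctions fell to 66.0%, from 1.58 to 1.04%. Inversional Sμ junctions rose 2.10-fold, from 7.74% ± 0.22 to 16.3% ± 1.05, and deletional ones 1.17-fold, from 32.0% ± 1.16 to 37.5% ± 1.48, both without overlap (SD, n = 3 each). These are shares of a window in which Sε itself fell from 27.9 to 8.86%. A rise or an unchanged share in Sμ or Sγ1 is therefore not independent of that fall. The same shares of the junctions outside Sε were not calculated, so their direction there was not tested. The mean deletional Sγ1 share of the window stood at 98.8% of the WT level and the deletional Sμ share at 117%. Deletional Sγ1 junctions therefore fell relative to deletional Sμ junctions.

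**Figure D2:**
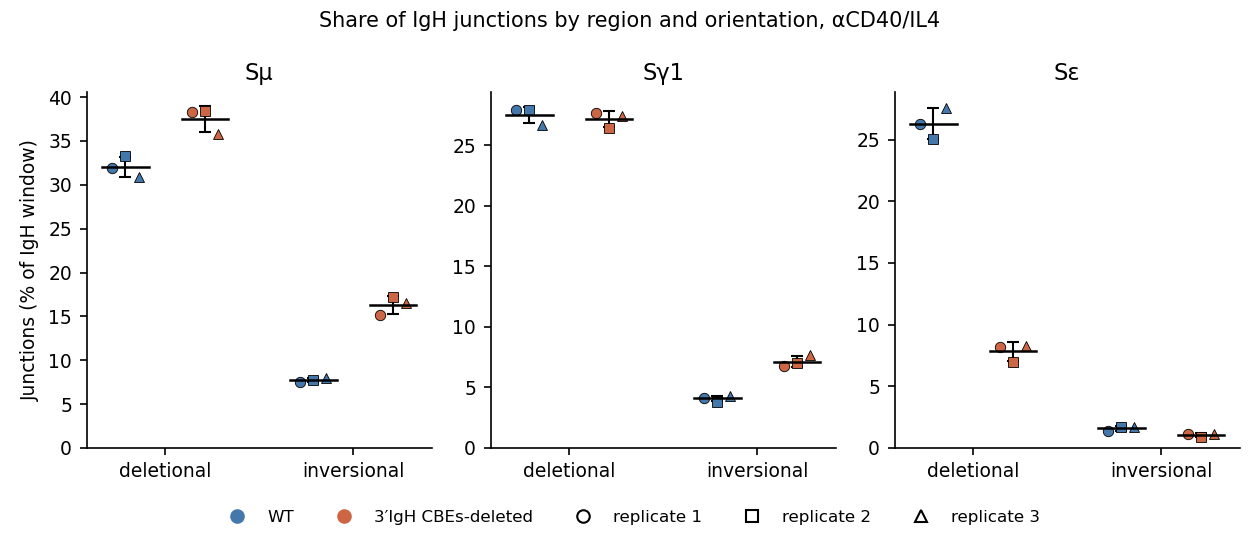
Deletional and inversional junctions in Sμ, Sγ1 and Sε as a percent of window junctions (y axis) in each αCD40/IL4 library. Points are libraries, horizontal bars are means and error bars are SD (n = 3). Deletional Sγ1 overlaps between the genotypes at 27.5 and 27.2%, while inversional Sγ1 rises from 4.08 to 7.13% and inversional Sμ from 7.74 to 16.3%.

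The difference in orientation was also seen with position held equal. When every 1-kb bin with at least 60 junctions was given the same weight in all libraries, the inversional share was 19.4% in WT and 31.8% in the deleted cells for Sμ, 13.9 and 18.0% for Sγ1, and 5.73 and 10.8% for Sε, with no overlap in any of them. In pooled Sμ junctions the bin centred 0.757 kb from the bait start had 26.4% inversional joins in WT and 41.4% in the deleted cells, and the next had 20.7 and 34.4%. At 3.76 kb the values were 17.3 and 13.2%, so the difference was seen near the bait and not in that bin, which held 323 WT and 234 deleted junctions, and the bins were not tested one by one. In Sγ1, inversional joins were most common at the edge nearest the bait, with 34.0% in WT and 40.9% in the deleted cells at 90.8 kb, and they fell to 4.42 and 6.83% at 101 kb.

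Deletional junctions also lay at different positions within the acceptors. In Sγ1 their median was 97.1, 96.9 and 96.6 kb from the bait start in WT and 94.4, 94.3 and 94.3 kb in the deleted libraries. The median was therefore 2.56 kb nearer the bait in the deleted cells, while the SD among libraries was 0.222 kb in WT and 0.0295 kb in the deleted cells (exact permutation p = 0.1). Split at 97.3 kb, near the WT median, the nearer part of Sγ1 rose from 14.7% ± 0.364 of the window to 18.6% ± 0.634 and the farther part fell from 12.8% ± 0.834 to 8.56% ± 0.45 (SD, n = 3 each). The split was placed after the shift of the median was seen and restates it. The lists' partial Sγ1 coverage was not tested as a part of this shift. In Sε the median moved from 154.83 to 154.64 kb, again nearer the bait in all 3 deleted libraries, and both parts of the region fell, the nearer to 32.0% and the farther to 24.0% of the WT level. In Sμ the medians overlapped, at 0.721 to 0.989 kb in WT and 0.774 to 1.17 kb in the deleted libraries.

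**Figure D3:**
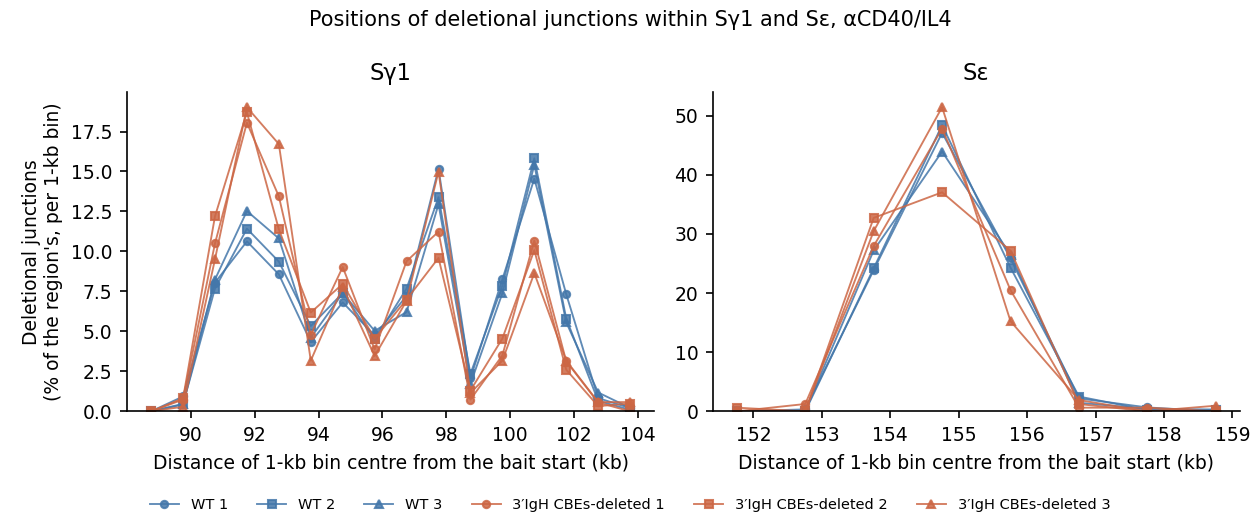
Deletional junctions in each 1-kb bin (y axis, percent of the region's deletional junctions in that library) against the distance of the bin centre from the bait start (x axis, kb) for Sγ1 and Sε. Each line is a library. In Sγ1 the deleted libraries lie above WT at 91 to 93 kb and below it at 99.8 to 102 kb.

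In 1-kb bins with at least 5 junctions, 48 bins went into Fisher's exact test, adjusted by the Benjamini-Hochberg method, and a call also needed libraries that did not overlap. Of these, 14 were higher in the deleted cells (29.2%) and 8 were lower (16.7%). The lower bins were 4 in Sε and 4 in Sγ1, and the higher ones were 5 in Sμ, 5 in eS, 3 in Sγ1 and 1 downstream of eS. The 5 bins in eS and the 1 downstream of it held 0 WT junctions. They reached the minimum of 5 junctions through the deleted libraries alone. Their calls therefore restate the counts given for eS above, and the 29.2% includes them. By difference of the mean share, the lower bins were led by the Sε bin at 154.8 kb from the bait start, which fell from 12.9% ± 0.0324 to 4.02% ± 0.985, and by its neighbours at 155.8 kb (6.92 to 1.69%) and 153.8 kb (7.23 to 2.83%). The Sγ1 bins at 100.8 kb (4.39 to 2.86%) and 99.8 kb (2.27 to 1.12%) followed. The higher bins were led by the Sμ bin that holds the bait start, which rose from 9.32% ± 1.22 to 14.5% ± 0.0169, and by the Sγ1 bin at 91.8 kb (4.24 to 7.04%). The Sμ bin at 1.76 kb (6.59 to 9.34%) and the Sγ1 bins at 90.8 kb (3.33 to 4.93%) and 92.8 kb (3.17 to 4.76%) came next. Sγ1 was the region with calls in both directions.

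eS (chromosome 12, 114448001 to 114454000, where the coordinates equal those of mm9) lies between genes except for an annotated U6 snRNA at 114452360 to 114452463. Its 104 junctions fell on 99 positions. Per kb, going away from the bait, the pooled deleted libraries had 3, 22, 17, 21, 26 and 15 junctions and then 10 in the first kb downstream of eS, 3 in the 3 kb after it and 1 in the 44 kb beyond, a stretch that holds Tmem121 and part of 4930427A07Rik. The junctions were spread over the 6 kb, and the densest kb took 0.482% of the window against 4.02% for the densest kb of Sε in the same libraries. The 200 bases of eS with the most junctions are printed from mm9, plus strand, chr12:114452783-114452982, to show how scattered the joins were. Capitals mark the 10 positions at which preys of 11 junctions began, 7 from replicate 1 and 2 from each of the others.
eS, 200 bases: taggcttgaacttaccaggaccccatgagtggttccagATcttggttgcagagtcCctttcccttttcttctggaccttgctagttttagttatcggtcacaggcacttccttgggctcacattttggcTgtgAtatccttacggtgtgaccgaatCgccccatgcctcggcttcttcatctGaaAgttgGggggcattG
This window has no AGCT, and the 6 kb of eS hold 22, or 3.67 per kb, in a search in which the motif is its own reverse complement. Other AID-targeting motifs were not searched.

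**Figure D4:**
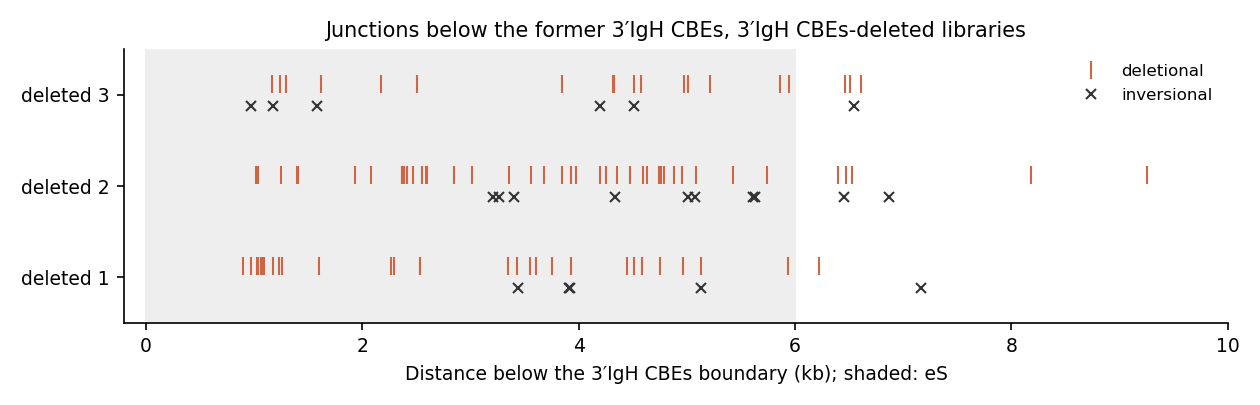
Junctions below the former 3′IgH CBEs in the 3 deleted αCD40/IL4 libraries by distance from the boundary (x axis, kb). Vertical ticks are deletional and crosses inversional junctions, and the shaded part is eS. Junctions are spread over all 3 libraries from about 1 kb onwards, 1 lies beyond the axis, and the WT libraries have 0.

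The bases at the join were then compared. A join can be direct, can share bases between bait and prey (microhomology), or can hold inserted bases. In Sμ, joins with at least 2 shared bases made up 32.7, 33.6 and 31.6% in WT and 38.4, 36.4 and 36.9% in the deleted libraries, and the mean rose from 32.6% ± 1.01 to 37.3% ± 1.03 (SD, n = 3 each, exact permutation p = 0.1, Fisher's exact test, adjusted p = 0.000381). Direct joins in Sμ fell from 25.1% ± 1.31 to 22.4% ± 0.657, without overlap (Fisher's exact test, adjusted p = 0.0208). In Sγ1 the microhomology share was 35.3% ± 2.08 in WT and 35.6% ± 2.63 in the deleted cells, and in Sε 33.0% ± 1.16 and 33.5% ± 2.59, and both overlapped (exact permutation p = 0.8 each).

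The difference in Sμ was larger among inversional joins. Of these, 34.4, 38.3 and 35.5% had at least 2 shared bases in WT and 46.5, 41.1 and 43.5% in the deleted libraries. Direct inversional joins were 26.3, 20 and 20.8% in WT and 15.2, 14.5 and 14.8% in the deleted libraries, so the mean fell from 22.4% ± 3.45 to 14.8% ± 0.344 (SD, n = 3 each, exact permutation p = 0.1, Fisher adjusted p = 0.000142 over 14 comparisons). Among deletional Sμ joins, the microhomology share was 31.8% ± 1.06 and 34.5% ± 0.679, without overlap (Fisher adjusted p = 0.0551), and direct joins were 25.8 and 25.7%. Inserted bases overlapped between the genotypes in both orientations. Of 30 shares compared (5 classes of join in each orientation of 3 regions), 6 did not overlap between the genotypes, 3 of them in Sμ. In inversional Sε joins the share with at least 2 shared bases was lower in the deleted cells, 28.1% against 40.6%, on 57 deleted junctions. In eS, 31 of 104 junctions, or 29.8% (Wilson 95% interval 21.9 to 39.2%), had at least 2 shared bases and 32 were direct.

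**Figure D5:**
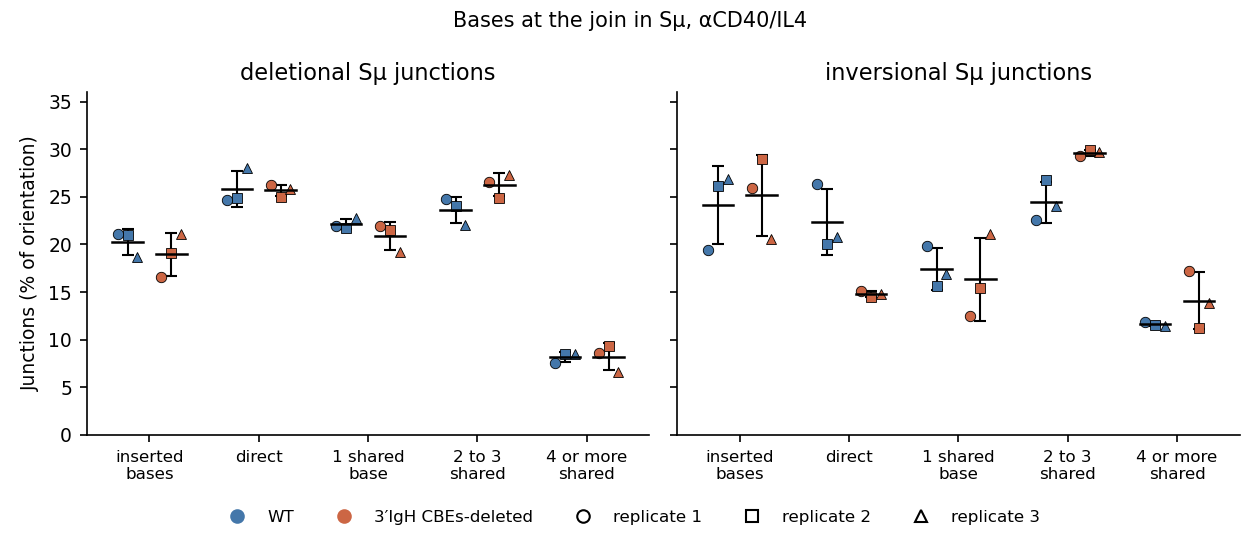
Classes of join in Sμ (x axis) as a percent of the deletional or of the inversional Sμ junctions (y axis) in each αCD40/IL4 library. Points are libraries, horizontal bars are means and error bars are SD (n = 3). Among inversional joins, direct joins fall from 22.4 to 14.8% and joins with 2 to 3 shared bases rise from 24.4 to 29.6%.

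AGCT starting at any of the first 4 bases of the prey did not differ between the genotypes beyond the spread between libraries. It was found in 21.6% ± 1.56 of Sμ preys in WT and 22.3% ± 2.23 in the deleted cells, in 8.27% ± 0.844 and 7.30% ± 1.80 in Sγ1, and in 14.3% ± 0.903 and 12.4% ± 2.72 in Sε (SD, n = 3 each, exact permutation p = 0.8, 0.4 and 0.4). The same preys held it further inside, in stretches of the same length, at 20.4 and 20.4% in Sμ, 7.94 and 7.81% in Sγ1, and 13.3 and 13.1% in Sε. Start and inside were not tested against each other. In eS, the shares were 0 to 2.08% over the deleted libraries at the start and 1.01 to 2.36% inside. AGCT is only part of the broader set of AID-targeting motifs that the study scored, and the others were not searched here. With that set, the study reports that most junctions in a core part of eS lay within such motifs. The low AGCT shares in eS therefore do not measure AID targeting there.

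Outside the IgH window, the share of all junctions was 6.13, 23.6 and 25.6% in WT and 13.7, 29.6 and 61.4% in the deleted libraries, which overlapped (exact permutation p = 0.4). Without G-rich preys it was 5.72, 6.29 and 6.94% in WT and 13.5, 10.8 and 12.9% in the deleted libraries, which did not (means 6.32% ± 0.61 and 12.4% ± 1.39, SD, n = 3 each). The numbers of these junctions overlapped, 211 to 261 per WT library and 187 to 306 per deleted library, while the window held fewer junctions in each deleted library. Among the 1-Mb bins with the most of them, the parts of chromosome 12 from 114000001 to 115000000 that lie outside the window had 14 WT and 19 deleted junctions. The bins had 18 and 6 on chromosome 7 (132000001 to 133000000), 14 and 10 on chromosome 6 (129000001 to 130000000), 13 and 5 on chromosome 12 (115000001 to 116000000) and 7 and 3 on chromosome 17 (47000001 to 48000000). No test was made on these counts.

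The same deletion was set beside the other stimulation of the series, LPS/αIgD-dextran, which directs switching to Sγ3, Sγ2b and Sγ2a, by the log2 ratio of deleted over WT in same-numbered libraries. The numbers are not known to pair the libraries, and the mean log2 ratio would be the same with any other pairing, but the permutation p depends on it. The inversional share of Sμ had log2 ratios of 0.57, 0.72 and 0.62 with αCD40/IL4 and of -0.02, -0.12 and 0.10 with LPS/αIgD-dextran. The difference of 0.65 on the log2 scale had the smallest p the test allows (two-sided exact permutation p = 0.1). With LPS/αIgD-dextran the inversional share of Sμ was 22.6% ± 1.19 in WT and 22.4% ± 0.556 in the deleted cells. The Sμ share as a whole rose less with αCD40/IL4, with a mean log2 ratio of 0.44 against 0.76 (exact permutation p = 0.1). The microhomology share of inversional Sμ had overlapping log2 ratios (means 0.28 and 0.11, exact permutation p = 0.2). In the deleted cells the eS share was 1.85% ± 0.192 with αCD40/IL4 and 2.48% ± 0.208 with LPS/αIgD-dextran (SD, n = 3 each, exact permutation p = 0.1). This order depends on the denominator, since the window of the αCD40/IL4 libraries holds Sγ1 junctions that those of the other stimulation hold few of. With junctions outside Sγ1 as denominator, the eS share was 2.82% ± 0.265 with αCD40/IL4 and 2.48% ± 0.208 with LPS/αIgD-dextran, and the libraries overlapped (exact permutation p = 0.2).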

How the data were processed

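CSR-HTGTS-seq recovers junctions made from 5′Sμ. Per the labels and the study's methods, the authors amplified sonicated DNA from a 5′Sμ primer, sequenced it, mapped reads with Bowtie2 to mm9 with part of the IgH locus replaced by that of another strain, and took out duplicates. The deposited lists give each junction's coordinates, strands, aligned positions within the read and the read itself, without normalization.

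Junctions of the 6 αCD40/IL4 libraries in the window were assigned to 14 regions, whose boundaries were read from the study's figures. Groups came from the labels. The members, regions and tests were chosen with earlier results of these data known. Named were the 14 regions, the 5 called 1-kb bins with the largest difference in each direction, the 5 fullest 1-Mb bins elsewhere, and the most recurrent junction of each main region, read in a library whose read held 60 aligned prey bases. The split of Sγ1 and Sε, the separate orientations and the classes of join by orientation were added after the data were seen.

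Two-sided exact permutation tests compared shares, and Fisher's exact test, adjusted by the Benjamini-Hochberg method, compared pooled junctions within each kind of measure. Wilson intervals at the 95% level and the limit of 3 junctions cover counting error only. Microhomology was read from the overlap of bait and prey alignments. Alternatives covered denominators, boundaries, orientation, repeated positions, prey length, microhomology, bin width, replicate block and each library left out. Scripts ran in Python 3.11.15 with scipy 1.17.1, numpy 2.4.6, pandas 2.3.3 and, for plots, matplotlib 3.10.9.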

Additional observations from a re-analysis of the deposited data

Results flagged for a closer look

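The Sγ1 share of the window changed in opposite directions in the libraries of the 2 stimulations. The log2 ratio of deleted over WT in same-numbered libraries was 0.10, 0.08 and 0.18 with αCD40/IL4 and -1.99, -1.61 and -1.93 with LPS/αIgD-dextran, a difference of the means of 1.96 (two-sided exact permutation p = 0.1, the smallest the design allows). LPS/αIgD-dextran does not direct switching to Sγ1, and the share there was 0.6% ± 0.199 in WT on 94 junctions and 0.17% ± 0.0644 in the deleted cells on 14 junctions (SD, n = 3 each). The αCD40/IL4 lists hold only part of the Sγ1 junctions, and its part in the difference was not tested. The direction with αCD40/IL4 depends on the denominator. With all junctions of the genome its mean log2 ratio was -0.28, the same direction as the -2.13 of LPS/αIgD-dextran, and without G-rich preys it was 0.02 against -2.10, with both signs among the αCD40/IL4 libraries. The window share with αCD40/IL4 is also not independent of the fall in Sε. Mean log2 ratios in the window were 0.12 for Sγ1 and 0.44 for Sμ with αCD40/IL4, and -1.84 and 0.76 with LPS/αIgD-dextran. Relative to Sμ, Sγ1 therefore fell with both stimulations.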

How the results depend on the processing

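Every value here is the deleted minus the WT mean, in percentage points unless a count, a kb or a log2 value is named. The shares of Sε, Sμ, Sγ1 and eS, the Sε part of Sε plus Sγ1, the inversional shares and the Sμ microhomology and direct shares kept their direction and did not overlap under the alternatives run, except with all junctions of the genome as denominator. There the Sγ1 share turned to -3.52 and the Sμ share overlapped at 2.76, and without G-rich preys, a setting added after seeing the data, the Sγ1 share overlapped at 0.46. A denominator without Sε was not run, so the direction of the Sγ1 and Sμ shares apart from the fall in Sε was not tested. In the window, Sγ1 rose by a smaller factor than Sμ and so fell relative to it. With 1 library left out, the differences were -19.6 to -18.3 for Sε, 2.35 to 3.17 for Sγ1 and 13.1 to 14.8 for Sμ. They were 10.2 to 11.8 for the inversional share in Sμ and 4.05 to 5.12 for its microhomology share. The count of called 1-kb bins was 22, 20 to 24 without 1 library, 11 of 26 with bins of 3 kb and 35 of 77 with bins of 0.5 kb, where the number of bins tested changes.

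The share outside the window overlapped at 16.4 and no longer did so without G-rich preys (6.08), with preys of at least 50 bases (11.1) and as paired differences with the replicate block (16.4). It ranged from 3.19 to 27.0 without 1 library, and it was 27.0 and no longer overlapped without deleted replicate 1 and 3.19 without deleted replicate 3. The replicate block changed no other call on a share, and it raised the count of called regions from 6 to 8 and left that of bins at 22. Same-numbered libraries had correlations of -0.504, 0.00696 and 0.289 in their deviations from the group means over 16 measures, so the numbers were not taken to pair them in the comparisons of genotypes.

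Results that overlapped between the genotypes turned with settings. With each prey position counted 1 time, the microhomology share in Sγ1 was -0.25 and the direct share in Sε -0.18, and with 1 base of microhomology that share in Sε was -1.16. With replicates 1 and 2 alone, the direct share in Sγ1 was 0.70 and the AGCT shares in Sμ and Sε were -0.00102 and 0.12. With preys of at least 50 bases, the deletional Sγ1 share was 0.46, the direct share of deletional Sμ 0.38 and the insertion share of inversional Sμ -0.39, and the AGCT share in Sε no longer overlapped at -2.22. With replicates 1 and 2 alone, the direct share of deletional Sμ was 0.87 and the Sμ median -0.00925 kb, nearer the bait. Without 1 library the ranges were -1.23 to 1.45 and -0.51 to 1.95 for microhomology in Sγ1 and Sε, -1.73 to 0.41 and -0.29 to 0.36 for direct joins there, and -0.53 to 1.41, -2.01 to -0.43 and -2.88 to -0.40 for AGCT in Sμ, Sγ1 and Sε. For the deletional Sγ1 share it was -0.72 to 0.054 (without overlap at -0.72, when WT replicate 3 was left out, and at -0.83 with replicates 1 and 2 alone), for the direct and insertion shares of deletional and inversional Sμ -0.75 to 0.92 and -1.35 to 3.28, and for the Sμ median -0.066 to 0.13 kb. The cause of these changes was not tested. Depth in the deleted libraries, 1267 to 2329 window junctions, limits what can be seen in regions and classes with few junctions.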
